A study of Mus musculus with 30 samples.

Results

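Imprinted genes are transcribed mainly from the copy inherited from 1 parent in at least some tissues, and 10 of them were followed here: H19, Igf2, Igf2r, Meg3, Peg3, Mest, Ndn, Grb10, Cdkn1c and Gnas. They were chosen by symbol, and each was found under 1 Ensembl identifier among the 56941 genes of the count files. The cells were mHypoA-2/12, an adult mouse hypothalamic line immortalized with the SV40 large T antigen, so every library came from 1 line and not from tissue. Cells received vehicle (0.1% DMSO) or cannabidiol (CBD), a non-intoxicating compound of hemp, at 0.325, 0.75, 1.5 or 3 µM for 6 or 24 h, with 3 libraries in each of the 10 groups. The vehicle libraries carried the same solvent as the CBD libraries and no other treatment. RNA was read with QuantSeq 3′ mRNA-Seq, which yields 1 fragment near the 3′ end of each polyadenylated transcript. The labels name the vehicle libraries A1 to A3 at 6 h and A28 to A30 at 24 h. At 24 h, A16 to A18 received 3 µM, A19 to A21 1.5 µM, A22 to A24 0.75 µM and A25 to A27 0.325 µM, and values within a group are given in this order. The 30 libraries held between 1839621 and 4420675 reads on genes, and levels are given as CPM, the counts scaled to a common library size by TMM, a method that evens out differences in composition.

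The imprint is laid down in the germ line as DNA methylation at control regions rich in the dinucleotide CpG, and is kept through cell division by DNMT1 and its partners. Many imprinted genes act on growth: those expressed from the paternal copy, such as Igf2, often promote it, and those from the maternal copy, such as Igf2r, H19, Cdkn1c and Grb10, often restrain it. In the brain, Grb10 is unusual in being expressed from the paternal copy in neurons, and Ndn, Peg3 and Gnas have known parts in feeding and hypothalamic function. The reads were counted per gene and not per allele, so parental origin was not measured.

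The labelled origin was checked against marker genes. The neuropeptides NPY, AgRP, POMC, CART and TRH of the hypothalamus had 1, 15, 3, 0 and 0 reads in the 30 libraries, and Gnrh1 reached 3.00 ± 1.53 CPM (SD, n = 30). Of the 7 neuron markers, Rbfox3 and Snap25 were at 0.589 and 0.0406 CPM, Syt1 was at 2.01 CPM, and Tubb3, Eno2, Map2 and Stmn2 stood at 49.3, 37.4, 23.3 and 15.4 CPM. Of the 3 microglia markers, Cx3cr1 and Csf1r were at 14.6 and 11.4 CPM, and Aif1 had 2 reads in all. Of the 4 astrocyte markers, Slc1a2 was at 18.9 CPM and Aldh1l1 at 0.458 CPM, with 2 reads of Gfap and 0 of Aqp4. The 6 mesenchymal markers summed to between 3717 and 5062 CPM, with Col1a1 at 2063 ± 221 CPM. Endothelial and oligodendrocyte markers summed to at most 2.96 and 4.14 CPM in any library. Apart from Gnrh1, the defining neuropeptides were therefore at or near 0 in these cells.

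H19 is a long non-coding RNA on chromosome 7 (chr7:142575529-142578143, minus strand, GRCm38) and the host of the microRNA miR-675. The mature miR-675 sequences, from RefSeq (GRCm38.p6), are shown because they lie inside the transcript whose level is reported here: both are found in 3 of the 7 annotated H19 transcripts. Their seeds, bases 2 to 8, are in capitals and differ from each other. The 3′ libraries count the polyadenylated host and not the mature microRNAs.
mmu-miR-675-5p: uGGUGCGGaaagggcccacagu
mmu-miR-675-3p: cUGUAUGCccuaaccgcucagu

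The 250 bases before RefSeq starts of Grb10, Peg3 and Ndn, on GRCm38.p6, are shown with each CpG in capitals. These 3 genes differed most clearly between the 2 times, and CpG is the dinucleotide that is methylated. The windows were chosen by start and not by imprint control region. Whether a window overlaps a control region was not tested. Of the 10 genes, 8 had such a window, with 18 windows in all. The more upstream of the Grb10 windows shown (chr11:12037421-12037670, minus strand) lies inside the gene's span in GENCODE, as does the Ndn window, so other annotated starts lie further upstream. Its window held 40 CpG, a number reached by 1.31% of the 32851 mouse promoter windows searched on the same length, against a median of 6.
Grb10, upstream start: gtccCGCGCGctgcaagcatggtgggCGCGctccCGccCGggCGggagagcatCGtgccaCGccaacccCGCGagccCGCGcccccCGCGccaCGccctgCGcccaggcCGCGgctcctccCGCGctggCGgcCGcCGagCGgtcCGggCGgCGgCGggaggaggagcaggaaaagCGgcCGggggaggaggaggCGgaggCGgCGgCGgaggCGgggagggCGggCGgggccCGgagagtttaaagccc
The second Grb10 start lies further into the gene (chr11:12027972-12028221, minus strand) and its window held 8 CpG, as many as or more than which were found in 43.0% of windows.
Grb10, downstream start: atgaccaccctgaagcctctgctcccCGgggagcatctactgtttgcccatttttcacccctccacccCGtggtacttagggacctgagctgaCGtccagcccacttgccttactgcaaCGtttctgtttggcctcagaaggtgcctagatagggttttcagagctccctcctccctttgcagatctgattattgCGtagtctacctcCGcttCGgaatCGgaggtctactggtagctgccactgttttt
The Peg3 window (chr7:6730420-6730669, minus strand) also held 8 CpG.
Peg3: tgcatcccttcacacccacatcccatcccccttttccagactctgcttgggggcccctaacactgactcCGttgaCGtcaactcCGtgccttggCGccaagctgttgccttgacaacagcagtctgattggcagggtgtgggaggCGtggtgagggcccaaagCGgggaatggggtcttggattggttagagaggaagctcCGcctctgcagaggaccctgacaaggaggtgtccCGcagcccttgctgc
The Ndn window (chr7:62348027-62348276, plus strand) held 5 CpG, a number reached by 55.6% of windows.
Ndn: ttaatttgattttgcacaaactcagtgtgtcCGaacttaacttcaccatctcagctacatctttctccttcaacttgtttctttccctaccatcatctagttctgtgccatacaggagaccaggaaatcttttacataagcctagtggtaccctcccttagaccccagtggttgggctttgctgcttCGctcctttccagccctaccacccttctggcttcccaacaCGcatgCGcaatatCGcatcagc
CpG was counted as the letters CG, which read the same on both strands. The 3′ reads do not tell which Grb10 start was used, and methylation was not measured.

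Levels spanned a wide range between the genes, from Gnas down to Igf2. Gnas, which encodes the stimulatory G protein alpha subunit and several overlapping imprinted transcripts (chr2:174284320-174346744, plus strand), stood at 501 ± 72.3 CPM (SD, n = 30), place 253 among all genes. Grb10, an adaptor that binds and dampens the insulin and IGF1 receptors (chr11:11930508-12038683, minus strand), followed with 96.4 ± 24.9 CPM. Igf2r, the receptor that carries IGF2 to the lysosome (chr17:12682406-12769664, minus strand), ran from 12.8 to 41.1 CPM (median 29.5), and H19 was at 23.6 ± 6.68 CPM. Igf2r exceeded H19 in 19 of 30 libraries and their ranges of mean ± SD overlapped.

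The other 6 genes lay at or below 1.61 CPM. Ndn, the growth suppressor necdin of the Prader-Willi region (chr7:62346569-62350262, plus strand), averaged 1.61 ± 1.43 CPM from 145 reads. Peg3, a zinc finger protein (chr7:6703892-6730431, minus strand), averaged 1.50 ± 1.32 CPM from 116 reads. Cdkn1c, the cyclin-dependent kinase inhibitor p57 (chr7:143458339-143461050, minus strand), averaged 0.735 ± 0.803 CPM from 64 reads. Mest, a predicted hydrolase (chr6:30723547-30748465, plus strand), and Meg3, a long non-coding RNA of the Dlk1 region (chr12:109541001-109571726, plus strand), averaged 0.526 ± 0.629 and 0.436 ± 0.636 CPM. Over all 30 libraries, neighbours in this low range overlapped in mean ± SD, so these means did not resolve their order. Ndn and Peg3 swapped places between the times. From pooled reads, Peg3 stood at 2.31 and Ndn at 0.590 CPM at 6 h, and Ndn at 2.69 and Peg3 at 0.574 CPM at 24 h. Igf2, the fetal growth factor (chr7:142650766-142666816, minus strand), had 2 reads in all, 1 in the vehicle library A3 at 6 h and 1 in a 0.325 µM library at 24 h.

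Per kilobase of annotated exon the order was Gnas (44.8 CPM per kb), Grb10 (10.6), H19 (9.60), Igf2r (3.00), Ndn (0.436), Cdkn1c (0.361), Mest (0.133), Peg3 (0.112), Meg3 (0.0241) and Igf2 (0.00290). The place in the order differed for 5 of the 10 genes between the 2 scales. Grb10 and H19 overlapped in mean ± SD on the per-length scale, and Grb10 was the higher in 18 of 30 libraries. A 3′ library yields 1 fragment per transcript, so CPM already stands near a count of transcripts.

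Some of these genes share bases with a neighbour. Of the last 500 exonic bases of Igf2, 99.4% are shared on the same strand with the gene model Gm49394, which had no read, and a read on shared bases is assigned to neither gene under HTSeq's default rule. The low count of Igf2 therefore cannot be read as absence of its RNA. All of the last 500 bases of Mest (100%) lie opposite Copg2 on the other strand, and 8.83% of the Gnas and 30.7% of the Cdkn1c exon bases lie opposite Nespas and Gm44732. The strand setting of the counting was not given in the sources used here. The Gnas transcripts share their last exons, so their 3′ reads were counted together.

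**Figure D1:**
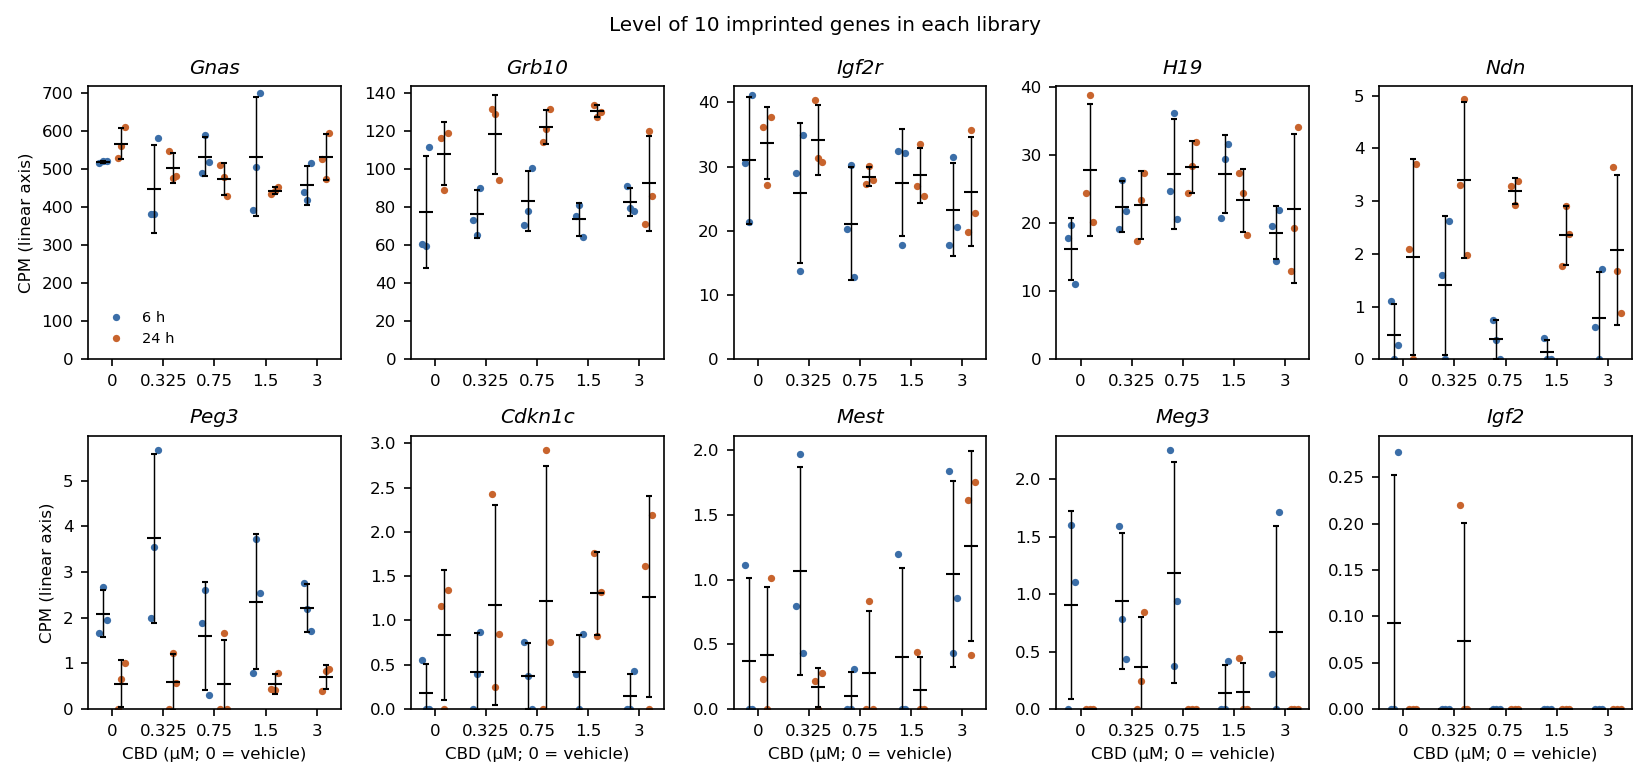
CPM (linear axes starting at 0) of the 10 imprinted genes against CBD dose in µM, 0 being vehicle, with 1 point for each of 30 libraries, 6 h in blue and 24 h in orange, and the mean ± SD of 3 libraries in black, cut at 0. Grb10 and Ndn lie higher at 24 h, Peg3 lies lower, and Gnas stands near 501 CPM at both times.

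Only Gnas, Grb10, Igf2r and H19 passed the filter on low counts and entered the edgeR quasi-likelihood tests, which ran on 12012 genes at 6 h, 12118 at 24 h and 12790 over both times. A gene was called at a Benjamini-Hochberg false discovery rate (FDR) below 0.1. Per the study's methods, each concentration and time had n = 3 from cells grown in plates of wells, with no word on whether these were independent passages, so p-values measure the spread between these libraries. At 6 h, none of the 4 genes was called in CBD against vehicle, and their median log2 fold change over the 4 doses was -0.04, beside -0.02 for all genes. This held for the mean of the 4 doses (background 0.749% of 12012 genes called), for 0.325 µM (0.2%), 0.75 µM (0.0749%), 1.5 µM (0.0999%) and 3 µM (0.05%), and for the trend over dose (0.0333%). Neither the test among the 4 CBD doses nor that of 3 µM against the 3 lower doses called any gene at 6 h (0% and 0%), although 452 and 624 genes had an unadjusted p below 0.05, and DESeq2 called none of the 4 in either.

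H19 came nearest to a difference at 6 h: it alone of the 4 had an unadjusted p below 0.05, for the mean of the doses, 0.75 µM and 1.5 µM. Of all 12012 genes, 1234, 936 and 950 had such a p in these contrasts, and DESeq2 called none of the 4 in any of them. H19 was at 17.8, 19.7 and 11.1 CPM in the 3 vehicle libraries and at 19.1, 26.4 and 21.9 CPM with 0.325 µM. At 0.75 µM the values were 24.8, 36.2 and 20.6 CPM, and at 1.5 µM 20.8, 29.4 and 31.7 CPM. At 3 µM they were 19.6, 14.4 and 21.9 CPM, within the range reached by vehicle or just above it. The 0.75 and 1.5 µM libraries all lay above the vehicle libraries, and the 0.325 and 3 µM libraries overlapped them. The log2 fold change of the mean of the 4 doses was 0.58 (SE 0.23, 95% interval 0.10 to 1.06) with an edgeR FDR of 0.36. At 0.75 and 1.5 µM it was 0.78 and 0.79, with edgeR FDRs of 0.457 and 0.442. With reads lying outside genes, as a share, entered as a covariate, the mean of the 4 doses gave 0.64 and passed the threshold at an edgeR FDR of 0.0975. Without A3, the lowest vehicle library, it was 0.33 (edgeR FDR 0.647).

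Igf2r at 6 h stood at 30.6, 21.3 and 41.1 CPM in vehicle, and its CBD libraries ran from 12.8 to 35.0 CPM. The log2 fold change of the 4 doses was -0.39 (95% interval -0.92 to 0.15, edgeR FDR 0.667), and the 2 sets of libraries overlapped. Without A3 it was -0.10 (edgeR FDR 0.926). Grb10 stood at 60.6, 59.8 and 111 CPM in vehicle, so that A3 lay far above A1 and A2. Its log2 fold change with CBD was 0.00 (95% interval -0.35 to 0.35). Without A3 it was 0.39 (edgeR FDR 0.286), outside that interval, so the value rests on this vehicle library. A3 also differed as a whole library. It held 3574833 reads on genes, against 1839621 in A1 and 1919498 in A2. Its share of reads outside genes was 17.9%, against 21.4% and 20.8%. Its difference from A1 and A2, as chi-square per gene, was 12.0 and 10.8, beside 2.23 between A1 and A2. The part of these traits in the 6 h values was not tested. Gnas was at 516, 520 and 521 CPM in vehicle and between 381 and 700 CPM with CBD, with a log2 fold change of -0.08 (95% interval -0.37 to 0.20).

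At 24 h, none of the 4 genes was called in CBD against vehicle either, and their median log2 fold change over the 4 doses was -0.22, beside -0.01 for all genes. The background was 0.107% of 12118 genes for the mean of the 4 doses, 0.066% for 0.325 µM, 0.0825% for 0.75 µM, 0.0413% for 1.5 µM, 0.00825% for 3 µM and 0.00825% for the trend over dose. Gnas had an unadjusted p below 0.05 for the mean of the doses, 0.75 µM and 1.5 µM. Igf2r had such a p for the trend (log2 slope -0.10 per dose step). None of the 4 did for 0.325 or 3 µM, and DESeq2 called none with the 15 libraries of 24 h in 1 fit. Of all 12118 genes, 815, 924, 889 and 1071 had such a p for the mean of the doses, 0.75 µM, 1.5 µM and the trend. Gnas came nearest in the first 3 of these: vehicle stood at 528, 561 and 609 CPM, 1.5 µM at 435, 443 and 453 CPM and 3 µM at 527, 473 and 594 CPM. The 1.5 µM libraries lay below all vehicle libraries and the 3 µM libraries overlapped them. The log2 fold change was -0.36 at 1.5 µM (SE 0.11, edgeR FDR 0.515) and -0.22 over the 4 doses (SE 0.09, edgeR FDR 0.651). The paper, using DESeq2 at an FDR below 0.1, lists Gnas in 24 h pathways that 1.5 µM shared with 0.325 or 3 µM. Why its calls differ from those here was not tested. H19, at 24.5, 38.8 and 20.2 CPM in vehicle, had a log2 fold change of -0.22 over the 4 doses (95% interval -0.65 to 0.21). That of Igf2r was -0.22 (95% interval -0.55 to 0.11) and that of Grb10 0.08 (95% interval -0.18 to 0.34). Without the vehicle library A29 the signs of H19 (0.08) and Grb10 (-0.04) turned and Igf2r was at -0.34.

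**Figure D2:**
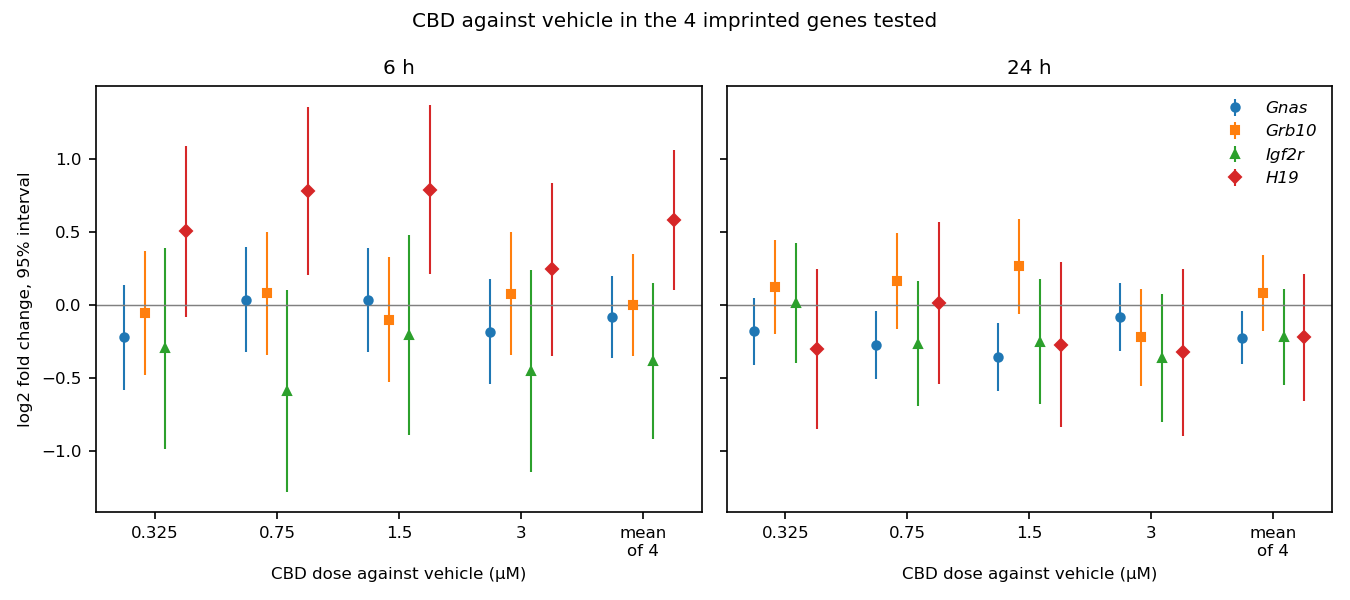
Log2 fold change with its 95% interval for CBD against vehicle at each dose and for the mean of the 4 doses, at 6 h (left) and 24 h (right), in Gnas, Grb10, Igf2r and H19. H19 at 6 h reaches 0.79 at 1.5 µM and Gnas at 24 h -0.36 at 1.5 µM, and no value passed an edgeR FDR of 0.1.

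The change with CBD was then compared between the times. None of the 4 genes was called in this interaction by edgeR or DESeq2 (background 0.235% of 12790 genes called). An unadjusted p below 0.05 was seen in 1 of the 4 and in 834 of the 12790 genes. For H19 the interaction, the log2 change with CBD at 24 h less that at 6 h, was -0.80 (SE 0.33, edgeR FDR 0.664). CBD and vehicle libraries overlapped in every one of the 10 genes at 6 h and at 24 h, whereas the 12 CBD and 3 vehicle libraries lay apart without overlap in 1.46% of genes tested at 6 h and in 0.611% at 24 h.

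The 6 genes below the filter were compared singly by an exact permutation test over the 15 libraries of a time, which has 455 splits and a smallest p of 0.0022. Genes with at least 10 reads at a time gave 9 tests, and all two-sided exact p-values lay between 0.33 and 0.923. The tests pooled the 4 doses, so they cannot show a difference between doses. Mest at 24 h, picked after its values were seen, averaged 1.26 CPM at 3 µM (9 reads). It averaged 0.168, 0.278 and 0.147 CPM at 0.325, 0.75 and 1.5 µM (2, 2 and 1 reads), and 0.414 CPM in vehicle (4 reads). Ndn at 24 h averaged 1.93 ± 1.86 CPM in vehicle (n = 3) and 2.75 ± 1.08 CPM with CBD (n = 12, exact p = 0.33). Without A29, which had 0 reads of Ndn, the difference turned to -0.147 CPM. Peg3 at 6 h averaged 2.09 ± 0.516 CPM in vehicle and 2.48 ± 1.41 CPM with CBD (exact p = 0.642). Meg3 at 24 h had 0 reads in the 3 vehicle libraries, which allows up to 0.296 CPM by counting error alone (3 reads), and 5 reads in the 12 CBD libraries.

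A contrast of 3 µM with the 3 lower doses was run because an earlier result of these data showed them apart at 24 h. Grb10 was called lower at 3 µM, beside a background of 10.5% of 12118 genes called in either direction. In the 3 µM libraries A16 to A18 it stood at 71.2, 120 and 85.9 CPM. At 1.5 µM it was at 134, 127 and 130 CPM, at 0.75 µM at 114, 121 and 132 CPM, and at 0.325 µM at 132, 129 and 94.2 CPM. A16 and A18 lay below all 9 libraries of the lower doses, and A17 lay among them. The log2 fold change was -0.40 (SE 0.14, 95% interval -0.68 to -0.13, edgeR FDR 0.0734), a 1.32-fold lower level.

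The share of reads outside genes, among reads on genes, outside genes or ambiguous, moved with this contrast. It was 21.4% ± 0.487 at 3 µM (n = 3) and 19.5% ± 0.464 at the lower doses (n = 9), without overlap, and 21.4% ± 0.714 in vehicle. With this share as a covariate the log2 fold change of Grb10 was -0.58 (edgeR FDR 0.387), and with the read total as a covariate -0.34 (edgeR FDR 0.386), so the call was lost in both. Without A16 it was -0.26 (edgeR FDR 0.475), without A18 -0.36 (edgeR FDR 0.237) and without A17 -0.64 (edgeR FDR 0.00371). Leaving out A19, A24, A25 or A26 also ended the call, at edgeR FDRs of 0.109 to 0.121. Against vehicle at 24 h, Grb10 at 3 µM differed by -0.22 (edgeR FDR 0.706), and among the 4 doses it was not called (edgeR FDR 0.314, background 1.93%). Among the cell type markers, Cx3cr1 of microglia was higher at 3 µM than at the lower doses (0.95, edgeR FDR 0.0657). Pdgfrb of mesenchymal cells was lower (-0.44, edgeR FDR 0.0427). No other marker tested was called there, Csf1r and the other mesenchymal markers included, beside 10.5% of all genes called. The part of Cx3cr1 and Pdgfrb in the Grb10 difference was not tested. H19, Igf2r and Gnas were not called at 3 µM against the lower doses, with log2 fold changes of -0.14, -0.20 and 0.19.

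**Figure D3:**
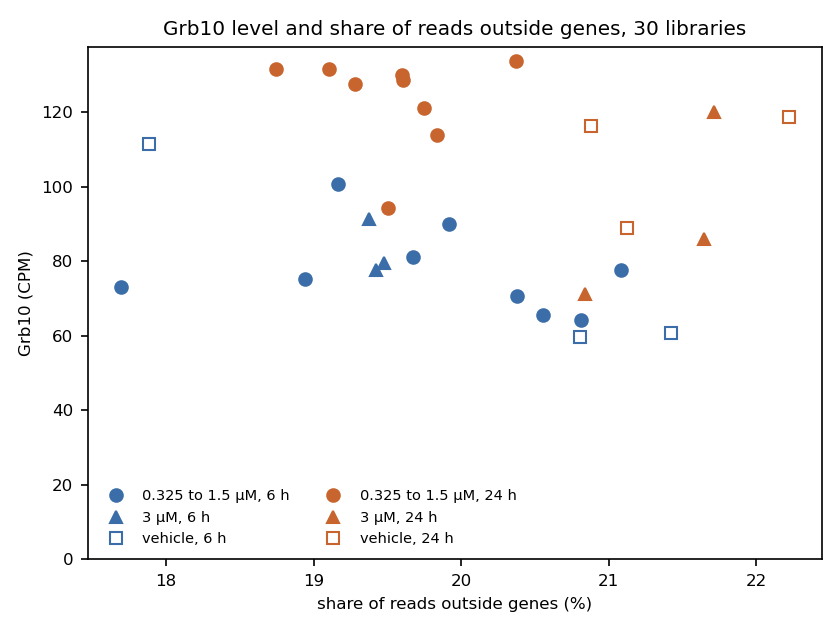
Grb10 level in CPM against the share of reads outside genes in percent, 1 point for each of 30 libraries, with 6 h in blue, 24 h in orange, triangles for 3 µM and open squares for vehicle. The 3 µM libraries of 24 h have shares near 21.4% and the lower doses of 24 h near 19.5%, with Grb10 at 94.2 to 134 CPM in the latter.

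Larger differences lay between the 2 times. Over all 5 treatments, 24 h against 6 h, 58.9% of 12790 genes were called, and of the 4 tested imprinted genes Grb10 alone. It ran from 59.8 to 111 CPM at 6 h (median 77.6, n = 15) and from 71.2 to 134 CPM at 24 h (median 120, n = 15). The mean was higher at 24 h in 5 of 5 treatments, and 11 of the 15 libraries of 24 h lay above every library of 6 h. The log2 fold change was 0.52 (SE 0.09, edgeR FDR 3.5e-06), a 1.44-fold higher level. The median of the 4 tested genes was 0.21, beside -0.01 for all genes. Igf2r, H19 and Gnas had log2 fold changes of 0.23 (edgeR FDR 0.135), 0.18 (edgeR FDR 0.259) and 0.02 (edgeR FDR 0.865). Marker genes moved between the times as well. The 7 neuron markers summed to 97.0 to 128 CPM at 6 h and to 119.5 to 156.5 CPM at 24 h. Of the 5 tested, Map2 (0.68) and Eno2 (0.32) were called, both higher. The scarce Rbfox3 (0.862 to 0.316 CPM) and Syt1 (2.44 to 1.59 CPM) had lower means at 24 h, and the other neuron markers had higher means. The 3 microglia markers summed to 18.3 to 52.5 and to 13.8 to 32.4 CPM, with Cx3cr1 (-0.72) called lower and Csf1r tested but not called. The 4 astrocyte markers reached at most 45.4 CPM in sum, and Slc1a2 among them was called lower (-0.81). Aldh1l1, too scarce to be tested, went the other way, from a mean of 0.184 to 0.732 CPM. The 6 mesenchymal markers summed to 3717 to 5024 and to 4068 to 5062 CPM, and all 6 were called. Dcn (0.74), Col3a1 (0.49), Thy1 (0.48), Pdgfrb (0.48) and Col1a2 (0.15) were higher at 24 h, and Col1a1 was lower (-0.14). Their part in the Grb10 difference was not tested. No gene of the 10 separated the times without overlap, as 2.25% of all genes tested did.

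In vehicle alone, 24 h against 6 h, 26.7% of 12790 genes were called, H19 and Grb10 among them. H19 was at 17.8, 19.7 and 11.1 CPM at 6 h and at 24.5, 38.8 and 20.2 CPM at 24 h, with every 24 h library above every 6 h library. Its log2 fold change was 0.82 (SE 0.30, edgeR FDR 0.0476), and it was 0.58 (edgeR FDR 0.255) without A3 and 0.52 (edgeR FDR 0.269) without A29. Grb10 rose from 60.6, 59.8 and 111 CPM to 116, 88.8 and 119 CPM, with 1 library of 24 h below the highest of 6 h. Its log2 fold change was 0.45 (SE 0.19, edgeR FDR 0.093). It was not called without A1, A2, A28 or A30 (0.31 to 0.41, edgeR FDRs of 0.224 to 0.342), or when only the 6 vehicle libraries were fitted (0.47, edgeR FDR 0.187). With the covariate for reads outside genes H19 was not called (0.55, edgeR FDR 0.205), and with the read total as a covariate Grb10 was not (0.23, edgeR FDR 0.436). Hours of treatment and anything else that differed between the 2 harvests cannot be told apart here.

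The scarce genes differed between the times in both directions. They were compared over 15 against 15 libraries by a two-sided permutation test with 100000 resamples, chosen after their values were seen and run for the 5 genes other than Igf2, and every mean below is in CPM. Ndn ran from 0 to 2.62 at 6 h (median 0.373) and from 0 to 4.93 at 24 h (median 2.90). Its mean was 0.631 ± 0.799 at 6 h and 2.59 ± 1.24 at 24 h (permutation p = 4e-05, n = 15 each), higher in 5 of 5 treatments. From pooled reads the level was 0.590 CPM at 6 h (23 reads, exact 95% Poisson interval 0.374 to 0.885) and 2.69 CPM at 24 h (122 reads, 2.24 to 3.22). Cdkn1c ran from 0 to 0.874 at 6 h (median 0.373) and from 0 to 2.92 at 24 h (median 1.16). Its mean rose from 0.308 ± 0.334 to 1.16 ± 0.913 (permutation p = 0.00168), from 11 to 53 reads, and was higher in 5 of 5 treatments.

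Peg3 moved the other way. It ran from 0.313 to 5.68 CPM at 6 h (median 2.18) and from 0 to 1.67 CPM at 24 h (median 0.564), with 4 libraries of 24 h at 0 reads and none of 6 h. Its mean fell from 2.40 ± 1.27 to 0.594 ± 0.495 CPM (permutation p = 4e-05, n = 15 each), from 90 to 26 reads, and was lower at 24 h in every treatment. Meg3 was seen in 11 of 15 libraries at 6 h and in 3 of 15 at 24 h. Its mean fell from 0.769 ± 0.736 to 0.102 ± 0.241 CPM (permutation p = 0.00184), from 30 to 5 reads, and it was higher at 24 h in 1 of 5 treatments, 1.5 µM, which had 1 read at each time. Mest, at 0.597 ± 0.678 and 0.454 ± 0.590 CPM, gave a permutation p of 0.54. The reads on genes numbered 38999649 at 6 h and 45273431 at 24 h. The lower counts of Peg3 and Meg3 and the higher counts of Ndn and Cdkn1c at 24 h all came with more reads. The part of depth in these differences was not tested. Counting intervals cover counting error only.

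An edgeR fit over 27561 genes with no filter on low counts, of which 28.7% were called, also called the 4 scarce genes Ndn, Cdkn1c, Peg3 and Meg3. The log2 fold changes at 24 h against 6 h were 2.31 for Ndn (SE 0.45, edgeR FDR 3.5e-06) and 1.96 for Cdkn1c (SE 0.62, edgeR FDR 0.00863). They were -1.90 for Peg3 (SE 0.45, edgeR FDR 0.000198) and -2.91 for Meg3 (SE 0.87, edgeR FDR 0.00499). Igf2r also passed there, at 0.25 (edgeR FDR 0.0667). In vehicle alone that fit called neither Ndn (2.12, edgeR FDR 0.250) nor Cdkn1c (2.25, edgeR FDR 0.499), Peg3 (-1.89, edgeR FDR 0.330) or Meg3 (-4.42, edgeR FDR 0.148). These vehicle libraries are also part of the contrast over all treatments, and the Meg3 value is a fitted one against a group with 0 reads. In these bulk samples, a lower level from fewer expressing cells cannot be told apart from less RNA per cell.

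A list of 59 other imprinted genes was read beside the 10. Of these, 8 had 0 reads in all libraries, and 29 were tested over both times. The 3 most abundant were H13 (263 ± 20.1 CPM), Cd81 (209.8 ± 22.8 CPM) and Nap1l4 (209 CPM). None of those tested was called by edgeR in CBD against vehicle, over the mean of the doses or at any dose, at 6 h (28 tested) or 24 h (26 tested). DESeq2 results for this list are not reported here. An unadjusted p below 0.05 for the mean of the doses was seen in 2 genes at 6 h and 0 at 24 h. Among all genes tested it was seen in 1234 of 12012 and 815 of 12118. Their median log2 fold change was -0.04 at 6 h and -0.02 at 24 h, and that of all genes -0.02 and -0.01. At 3 µM against the lower doses at 24 h, 1 of 26 was called, beside 10.5% of all genes: Cobl, an actin nucleator next to Grb10 on chromosome 11, at 1.45 (SE 0.40, edgeR FDR 0.0322), opposite in sign to Grb10. Cobl was also called among the 4 doses (edgeR FDR 0.0889, background 1.93%). The share of reads outside genes moved with the 3 µM contrast, and fits of Cobl with covariates are not reported here.

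Between the times, 14 of the 29 were called over all treatments, 7 higher and 7 lower at 24 h, beside 58.9% of all genes. Their median log2 fold change was 0.05, and that of all genes -0.01. The 5 with the smallest p were Kcnq1ot1, the antisense RNA of the Kcnq1 domain (-0.84, SE 0.12), Ube3a, the ubiquitin ligase of Angelman syndrome (-0.36, SE 0.06), Trappc9, a trafficking protein (0.58, SE 0.09), the matrix proteoglycan Dcn, also among the mesenchymal markers (0.74, SE 0.13), and Zrsr1 (0.68, SE 0.12). Their edgeR FDRs lay between 6.0e-07 and 1.1e-05. In vehicle alone, whose libraries are part of the same contrast, their values were -1.46, -0.46, 0.70, 0.94 and 0.65. Mirg, a non-coding RNA of the Meg3 cluster chosen for naming after its values were seen, was lower at 24 h (-1.07, SE 0.34, edgeR FDR 0.0074).

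**Figure D4:**
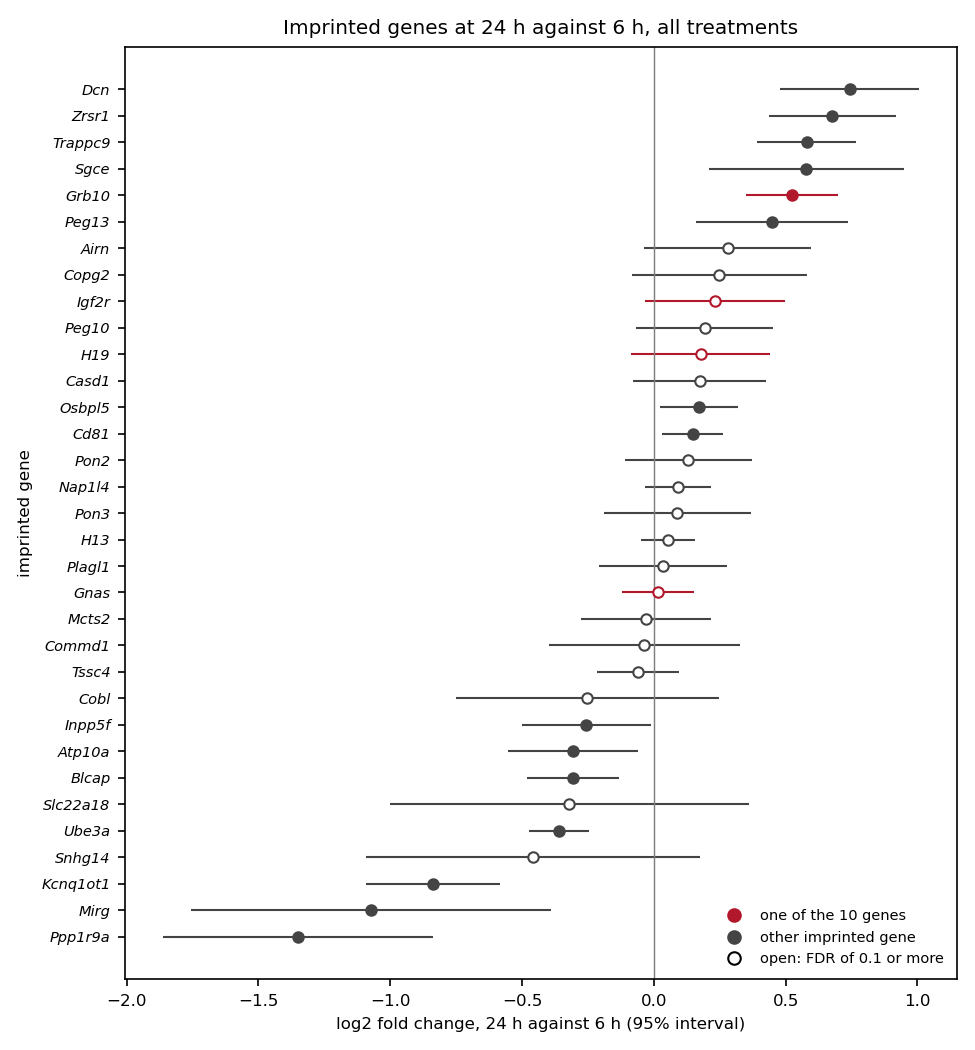
Log2 fold change at 24 h against 6 h over all treatments, with its 95% interval, for the 4 of 10 genes tested (red) and 29 other imprinted genes (grey), sorted by value; open points have an edgeR FDR of 0.1 or more. Grb10 lies at 0.52 among the higher genes, Igf2r, H19 and Gnas are open, and Kcnq1ot1, Mirg and Ppp1r9a lie lowest.

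The enzymes and factors that keep or erase imprints were read as a list of 13, with Dppa3 at only 4 reads. Trim28, the corepressor that protects imprinted methylation (351 ± 29.2 CPM), Smchd1 (175 ± 23.6 CPM) and Ctcf, the insulator protein of the H19 and Igf2 domain (152 ± 20.5 CPM), were the most abundant. None of the 10 tested at 6 h or 11 tested at 24 h was called in CBD against vehicle, with medians of 0.05 and -0.04 and 1 gene with an unadjusted edgeR p below 0.05 at each time. Of all genes tested, 1234 of 12012 at 6 h and 815 of 12118 at 24 h had such a p for the mean of the doses. Between the times, 6 of 11 were called over all treatments, a share near the 58.9% of all genes, with a median of -0.10 beside -0.01 for all genes. Dnmt1, the maintenance methyltransferase (0.18, SE 0.06), Tet1 (0.47, SE 0.18) and Dnmt3b (0.56, SE 0.27) were higher at 24 h. Smchd1 (-0.25, SE 0.06), Tet3 (-0.21, SE 0.08) and Trim28 (-0.10, SE 0.05) were lower.

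Partners of IGF2 and its receptors formed a list of 8, led by Igf1r (218 ± 19.1 CPM), Igf2bp2 (172 ± 44.7 CPM) and Igf2bp1 (95.8 ± 10.5 CPM). None was called in CBD against vehicle at either time, and the median was -0.01 at 6 h and 0.08 at 24 h. For the mean of the doses, 0 and 1 genes lay below an unadjusted edgeR p of 0.05, beside 1234 of 12012 and 815 of 12118 of all genes. Between the times 5 of 8 were called over all treatments, a share near the 58.9% of all genes, with a median of 0.25 beside -0.01 for all genes. The RNA-binding protein Igf2bp2 (0.62, SE 0.07, edgeR FDR 1.5e-09) and the receptor substrates Irs1 (0.45, SE 0.11) and Irs2 (0.32, SE 0.07) were higher at 24 h, as was Grb10. The ligand gene Igf1 (-0.70, SE 0.15, edgeR FDR 0.00012) and, just under the threshold, Igf1r (-0.10, SE 0.05) were lower.

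Proliferation genes were read beside the growth-restraining members Cdkn1c, H19 and Grb10. None of the 10 was called in CBD against vehicle at either time, with medians of 0.07 and -0.02. For the mean of the doses, 0 genes lay below an unadjusted edgeR p of 0.05, beside 1234 of 12012 and 815 of 12118 of all genes. At 3 µM against the lower doses at 24 h, 2 of 10 were called beside 10.5% of all genes: Cdk1 fell by 0.92 (SE 0.18, edgeR FDR 0.00518) and Ccnb1 by 0.41 (SE 0.12, edgeR FDR 0.0364) on the log2 scale, and Cdk1 also differed among the doses (edgeR FDR 0.0353, background 1.93%). The share of reads outside genes moved with the 3 µM contrast, and fits of Cdk1 and Ccnb1 with covariates are not reported here. Between the times, 6 of 10 were called over all treatments, a share near the 58.9% of all genes. Top2a (0.21, SE 0.05), Ccnb1 (0.23, SE 0.07) and Cdk1 (0.23, SE 0.12) were higher at 24 h, and Mcm2 (-0.30, SE 0.08), Bub1 (-0.56, SE 0.16) and Pcna (-0.16, SE 0.06) were lower. Their part in the differences of the imprinted genes was not tested.

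The genes whose log2 CPM followed each tested member most closely over the 30 libraries were named from 12789 others, as a description with no test, since libraries share their time, dose and depth. For Grb10 they included Fam3c (Pearson r = 0.945) and Arhgap31 (0.910). Within groups, after the 10 group means were taken out, these stood at 0.889 and 0.794. For H19 the nearest were 2900026A02Rik (0.769), Cotl1 (0.715) and Gm37524 (0.697). For Igf2r they were Rbm4b (0.731), Prr5l (0.727) and Mgst3 (0.722), and for Gnas Agbl5 (0.690), Lsm7 (0.689) and Actn4 (0.675). Among the 6 pairs of members, r ran from -0.141 (H19 with Igf2r) to 0.400 (Igf2r with Grb10). Within groups it ran from -0.384 (H19 with Grb10, 0.00992 over all libraries) to 0.340 (Igf2r with Grb10).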

How the data were processed

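Per the labels and the study's methods, polyadenylated RNA from mHypoA-2/12 cells was sequenced as 30 3′ libraries, trimmed, aligned with STAR 2.7.5c and counted per gene with HTSeq 1.99.2 on the Ensembl 109 annotation. The deposited values are raw counts per gene, 1 file per library, and no other per-sample column was left out (0). Rows without a gene were kept out of library sizes. Among reads on genes, outside genes or ambiguous, between 17.7% and 22.2% lay outside genes and between 4.74% and 5.08% were ambiguous. Replicates of a group differed by more than sampling noise in all 30 pairs (chi-square per gene 2.17 to 12.0). Counts were filtered (filterByExpr), scaled by TMM and tested with the quasi-likelihood test of edgeR 4.0.16 in R 4.3.3, with 1 mean per group and the 15 libraries of a time, or all 30 for the times, in 1 fit. FDRs were taken over all genes tested, at a threshold of 0.1. CPM used the scaling over 30 libraries, and log2 CPM a prior count of 2. Alternatives were DESeq2 1.42.0, other scaling and filters, covariates and leaving out each library. The test was checked on simulated data. Permutation tests used scipy 1.17.1.

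The members and lists were chosen with earlier results of these data known. All 10 members are named, and of each list the genes called in a contrast described (the 5 with the smallest p where more were called) and the 3 most abundant, unless stated otherwise. Called genes of the lists of keepers and proliferation genes are all named, beyond that rule, as are Mirg, Ppp1r9a and the marker genes. Gene positions and exon overlaps are those of GENCODE M21 on GRCm38, while the counts were made on GRCm39, whose annotation was not used here. Of 56941 identifiers, 51948 had a symbol. Precision is limited by depth: 3 reads of 1839621 to 4420675 are the limit in 1 library. For each tested member the 3 genes with the highest Pearson r are named, except 1 that is not reported here.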

Additional observations from a re-analysis of the deposited data

How the results depend on the processing

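Under DESeq2, DESeq2's size factors in edgeR, a minimum of 10 counts in every library and removal of mitochondrial genes, each count of imprinted genes called kept its value. Without the filter on low counts, 6 of the 10 genes were called at 24 h against 6 h over all treatments instead of 1. Of the 5 gained, 4 had not been tested with the filter, and Igf2r had (FDR 0.135 with the filter and 0.0667 without). With reads outside genes, as a share, entered as a covariate, 1 gene (H19) instead of 0 was called in the mean of the CBD doses at 6 h, 0 instead of 1 at 3 µM against the lower doses at 24 h, and 1 instead of 2 in vehicle at 24 h against 6 h. With the read total as a covariate, chosen after seeing the data, these last 2 counts were 0 and 1, and 2 genes (Grb10 and H19) were called at 24 h against 6 h over all treatments. With only the vehicle libraries in the fit, 1 gene was called between the times. The cause of these shifts was not tested.

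Leaving out 1 library at a time gave 0 to 1 called genes among the 4 doses at 24 h (1 without A17), 0 to 2 at 3 µM against the lower doses at 24 h, 1 to 2 in vehicle between the times and 1 to 4 over all treatments between the times, where Grb10 was called in 30 of 30. Every other count stayed at 0. The order of levels changed for 5 genes per kilobase and for none on library totals. Of the single values, none that was called changed sign. Among 2329 alternatives to the single values, 64 turned the sign of a value that was not called, 17 lost a call and 13 gained a call. No paired analysis was possible because the labels give no replicate number that the groups share.

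Scaling moved the median of all genes by under 0.1 on the log2 scale. Igf2, Meg3, Mest and Cdkn1c had 2 to 64 reads in all, and the smallest change with CBD detectable at such counts was not tested.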
